A study of Homo sapiens with 68 samples.

Results

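TLC-CLIP libraries prepared with an antibody to hnRNP C from cells that were not crosslinked, and without a purifying gel, were set against crosslinked libraries made the same way. The members were taken from the group titles: 2 libraries titled noUV_noPAGE_hnRNPc and 2 titled hnRNPc_50k_noPAGE, 4 of the 68 libraries of the study. TLC-CLIP crosslinks proteins to RNA with ultraviolet light, trims the RNA with RNase, immunoprecipitates 1 protein and sequences the fragments that stay with it. Both groups came from HEK293T, a human embryonic kidney cell line, with 50000 cells, 0.005 U of RNase and the antibody hnRNP C1/2 (4F4) in each library. noPAGE means that the protein-RNA complexes were not separated on a polyacrylamide gel and cut out. The omission of UV light in the noUV group is known from the titles and the design text alone, because every sample carries the same protocol, which describes crosslinking. The labels do not say whether replicates came from separate cultures, so the tests measure the spread between these libraries. The libraries without crosslinking have accessions in another run than the crosslinked ones. If that run marks a preparation batch, its effect and that of leaving out UV light cannot be told apart.

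hnRNP C is an abundant nuclear protein that coats newly made transcripts as part of hnRNP particles. It binds runs of uridine, most of them inside introns, and is known to keep the splicing factor U2AF2 from cryptic 3′ splice sites. Mitochondrial transcripts are made in another compartment, and the mitochondrial chromosome encodes ribosomal RNAs, transfer RNAs and respiratory chain proteins. A library made without crosslinking holds RNA that came through the purification without a UV-made bond to protein.

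Each library is 1 list of peaks that the authors' caller placed within genes, and the number of reads sequenced per library is not known. The crosslinked lists held 425880 and 455478 distinct peaks in 14005 and 14269 genes. The lists without crosslinking held 180532 peaks in 11789 genes (replicate 1) and 269317 peaks in 13086 genes (replicate 2). The median peak was 57 nt wide in both crosslinked lists, 60 nt in noUV replicate 1 and 54 nt in noUV replicate 2. The last number in a peak's name, read here as its number of reads, had a median of 11 in both crosslinked lists and of 8 and 9 in the lists without crosslinking. A site or gene that is not listed lies below the caller's limits and is not shown to be free of reads. Each library pools many cells, so fewer contributing cells and less RNA per cell cannot be told apart.

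The first question was which hnRNP C sites remain listed when crosslinking is omitted. As reference sites served the 201131 peaks of crosslinked replicate 1 that crosslinked replicate 2 overlapped on the same strand. noUV replicate 1 overlapped 30.96% of them and noUV replicate 2 overlapped 31.05%, against 8.94% and 11.8% after the reference sites were moved by 1000 nt. Both noUV lists overlapped 18.7% of the reference sites (37570), replicate 1 alone 12.3% (24710), and replicate 2 alone 12.4% (24888). Neither list held the other 56.7% (113963). The 2 noUV replicates thus retained near-equal shares, but 24710 and 24888 of the sites were retained in one of them alone. The crosslinked lists titled 500, which are as long as that of noUV replicate 2 (267998 and 270599 peaks), overlapped 48.7% and 48.4% of the reference sites. Their labels give 50000 cells, and the title points to fewer. Crosslinked lists that had also been digested with RecJ, an exonuclease used to clear unligated adapter, overlapped 63.0% and 71.4%. The noUV lists of the other antibodies (hnRNPA1, hnRNPI and RBFOX2) overlapped between 2.28% and 6.004% of the hnRNP C reference sites. For hnRNPA1 the shares were 5.50% and 6.004%, near the 5.13% and 5.35% after the move by 1000 nt. They were 2.31% and 3.52% for hnRNPI, against 1.30% and 2.17% after the move. RBFOX2 had 2.28% and 2.56%, against 1.61% and 1.81%.

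Retention followed the strength of the crosslinked signal. In the decile of reference sites with the fewest reads (4 to 7 in crosslinked replicate 1), 8.92% and 11.2% were retained in noUV replicates 1 and 2. In the decile with the most reads (42 or more), 67.8% and 61.9% were retained. Sites retained in both lists had a median of 27 crosslinked reads, and sites retained in neither had a median of 12. In the same deciles the lists titled 500 held 16.2% and 15.8% of the weakest sites and 89.3% and 89.5% of the strongest. Of the strongest decile, 22.8% was in neither noUV list, so the loss was not limited to weak sites. Width showed no such order among sites of like strength: with 15 to 22 reads, retention lay between 28.7% and 36.0% from the narrowest to the widest class.

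**Figure D1:**
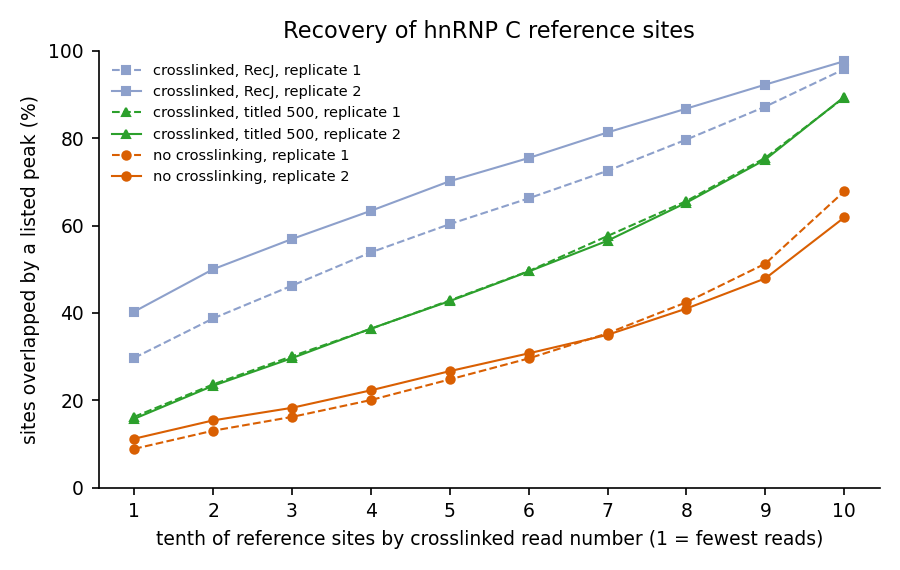
Percent of hnRNP C reference sites overlapped by a listed peak (vertical axis) in each decile of the sites by crosslinked read number (horizontal axis). Circles are the libraries without crosslinking, triangles the crosslinked libraries titled 500 and squares the crosslinked RecJ libraries, 1 line per library. In every decile both noUV libraries lie below the crosslinked ones, rising from 8.92% and 11.2% to 67.8% and 61.9%.

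Reference sites that overlapped a crosslinked peak of hnRNPA1, hnRNPI or RBFOX2 were retained at a higher share in both libraries. Such an overlap was little more frequent at the sites themselves (37.9%) than after a move by 1000 nt (36.0%). Of the 76199 overlapping sites, 37.5% and 38.0% were retained. Of the other 124932 sites, 26.9% and 26.8% were retained. The overlapping sites had a median of 18 reads and the others of 14, so strength moves with this difference, and its part was not tested. The lists titled 500 held 54.0% and 53.5% of the overlapping sites and 45.4% and 45.3% of the others. Reference sites retained in both noUV lists were found in noUV lists of the other antibodies for 23.8% (14.3% after a move by 1000 nt). For sites retained in neither, this share was 6.27%, against 8.26% after the move.

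Position along the gene also separated retained from lost sites. Each gene's span was taken as the distance between its outermost peaks in the 8 crosslinked RecJ lists of the 4 proteins. These lists enter no test of gene or site levels. Genes over 10000 nt were cut into 10 equal stretches, here called deciles. In the last decile, at the 3′ end, 44.8% and 40.8% of the reference sites were retained. In the other deciles retention lay between 26.4% and 32.4%. Among sites of 15 to 22 reads the last decile still had 42.0% and 37.3%, and the others 27.7% to 33.0%. The crosslinked lists titled 500 showed no such step for these sites, with 49.2% and 50.2% in the last decile and 50.3% to 53.7% elsewhere.

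The whole lists showed the same tilt toward gene 3′ ends. The last decile held 9.01% and 8.97% of the crosslinked peaks, and 13.9% and 12.2% of the peaks without crosslinking. The RecJ lists held 9.13% and 8.99% there and the lists titled 500 held 8.65% and 8.67%. Without crosslinking but with the gel, both hnRNP C lists held 12.6%. The tilt was not particular to hnRNP C: the last decile held 8.77% and 8.85% of the hnRNPA1 peaks with crosslinking and 14.4% and 13.2% without it. For hnRNPI these shares were 7.35% and 7.36% with crosslinking, and 14.8% and 14.9% without. RBFOX2 had 14.3% and 14.3% with crosslinking, and 18.7% and 19.1% without. Its crosslinked shares were thus already above the 13.9% and 12.2% of hnRNP C without crosslinking.

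**Figure D2:**
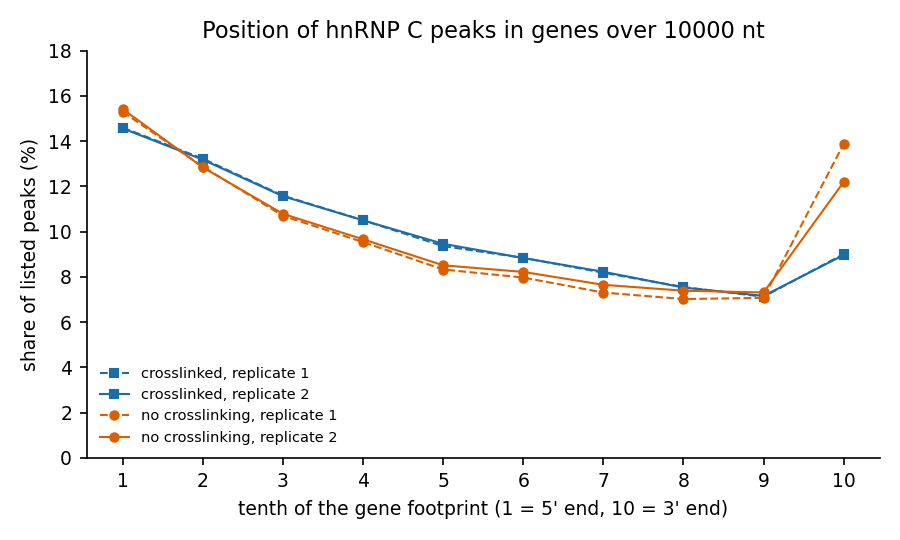
Share of listed hnRNP C peaks (vertical axis, percent) in each decile of the gene span from the 5′ to the 3′ end (horizontal axis), for genes over 10000 nt. Squares are the crosslinked libraries and circles those without crosslinking. The lines part in the last decile, at 9.01% and 8.97% against 13.9% and 12.2%.

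Seen from the other side, 57.2% of the peaks of noUV replicate 1 and 43.0% of those of noUV replicate 2 lay in a crosslinked hnRNP C peak. After a move by 1000 nt the shares were 22.3% and 20.7%. Peaks of replicate 1 that lay in crosslinked peaks and in replicate 2 (53747) had a median of 13 reads, and those in neither (54661) a median of 7. Of the peaks outside the crosslinked ones, 25.1% and 24.0% lay in noUV peaks of the other antibodies, against 8.76% and 8.04% after a move.

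Neither share set hnRNP C apart from the other antibodies. The retained share was 31.01% ± 0.0626 (SD, n = 2) for hnRNP C. For the 6 noUV libraries of hnRNPA1, hnRNPI and RBFOX2, each against its own reference sites, the mean was 24.1%, with values from 8.32% to 33.6%. The difference was 6.91 percentage points (exact two-sided permutation p = 0.571, adjusted over 2 tests 0.571). With the peaks of a single crosslinked library as reference the sign turned, to -4.75 points without crosslinked replicate 1 and -4.47 without replicate 2. These references also hold peaks that the other replicate did not list. The share of noUV peaks within crosslinked peaks was 50.1% ± 10.1 (SD, n = 2) for hnRNP C and averaged 57.8% in the other 6 libraries, with values from 43.3% to 68.0%. That difference of -7.71 points had an exact permutation p of 0.357 (adjusted 0.571). The smallest p this design allows is 0.03571, and libraries of 1 antibody are not independent of each other.

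At the level of genes most of the list remained. Of the 13182 genes with a peak in both crosslinked libraries, 11008 (83.5%) were listed in both noUV libraries, 241 in replicate 1 only and 992 in replicate 2 only. The remaining 941 (7.14%) were in neither. Lost genes were sparsely covered: they had a median of 1.5 crosslinked peaks, and 11 of them had more than 10. Of the 1210 genes with 1 to 1.5 crosslinked peaks on average, 24.96% were in both noUV lists. This share was 57.5% with 2 to 5 peaks, 86.5% with over 5 and up to 10, and 97.1% with over 10 and up to 20. With more than 50 peaks on average, both noUV libraries listed every gene (1660 and 1084 genes). In the other direction, 126 of the 11367 genes listed in both noUV libraries (1.11%) were in no crosslinked library of the group, and 59 of these were in a crosslinked RecJ list of hnRNP C.

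Gene levels were then compared as the reads in listed peak clusters of a gene per 1000000 such reads of the library (RPM). A level is thus a share of the listed signal and not an amount. Genes with a mean of at least 10 RPM over the 4 libraries were tested (9210) with limma on log2(level + 1). Of these, 3872 passed an adjusted p of 0.05 (42.0%): 1569 were higher without crosslinking (17.0%) and 2303 lower (25.0%). The median log2 difference over all tested genes was -0.16. Scaled by the median of ratios the median was -0.04 and the split 1868 higher to 1777 lower, so directions are relative to this center. The count fell to 2086 without crosslinked replicate 1 and to 1924 without crosslinked replicate 2. The libraries of the 2 groups did not overlap in 6838 genes (74.2%).

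Among tested genes, short ones that changed mostly rose and long ones mostly fell. The span of a gene was again the distance between its outermost RecJ peaks. Of 239 tested genes spanning 300 to 3000 nt, 136 rose and 5 fell, with a median log2 difference of 1.25. Of 69 spanning under 300 nt, 35 rose and 8 fell (median 1.01). In the 3408 genes of 3000 to 30000 nt, 850 rose and 370 fell, around a median of 0.13. In the 5080 genes of 30000 to 300000 nt the balance was turned, with 515 higher, 1691 lower and a median of -0.31. Of the 394 genes over 300000 nt, 17 rose and 229 fell (median -0.62). The 2 noUV replicates gave the same order, with medians of 1.35 and 1.24 at 300 to 3000 nt and of -0.74 and -0.48 over 300000 nt. Over the same genes the crosslinked lists titled 500 differed from the 50k lists by medians of -0.11 at 300 to 3000 nt and -0.26 over 300000 nt.

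The filter on low levels bears on the classes up to 30000 nt. A short gene can pass it through the libraries in which it is high, and 239 of 1303 listed genes of 300 to 3000 nt passed. With no filter the median of that class was -0.04, with 157 genes higher and 45 lower. For spans under 300 nt it was -0.40 over 1026 genes, with 50 higher and 26 lower. The median for 3000 to 30000 nt also turned, to -0.08 over 6064 genes, with 729 higher and 291 lower. The long classes kept their sign without the filter, at -0.35 for 30000 to 300000 nt and -0.60 over 300000 nt. With all peaks summed without joining, the class of 3000 to 30000 nt had a median of -0.14, with 600 higher and 683 lower.

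**Figure D3:**
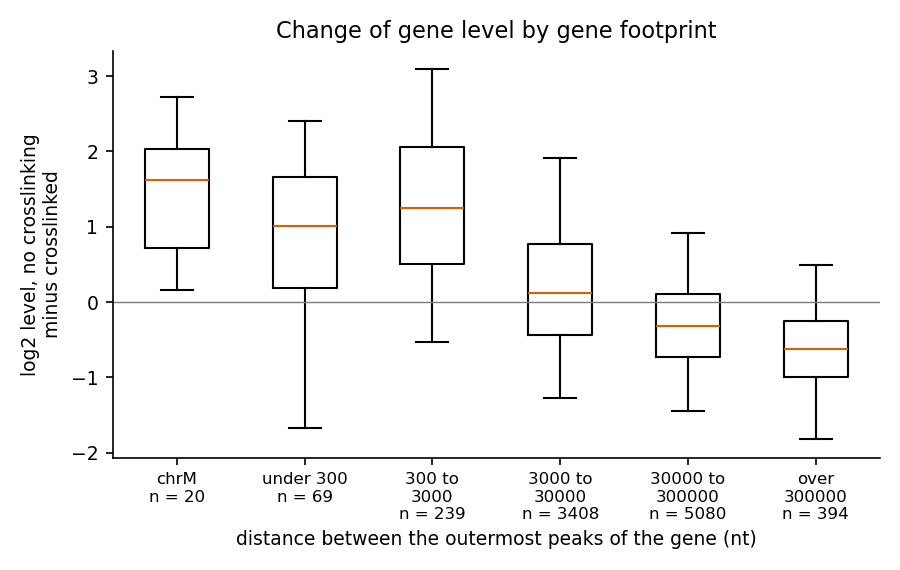
Log2 difference of gene level without crosslinking minus with crosslinking (vertical axis) for the tested genes of each span class and of the mitochondrial chromosome (horizontal axis, number of genes below). Boxes give the quartiles with the median as a line, and whiskers reach the 5th and 95th percentile. The medians go from 1.62 for the mitochondrial genes to -0.62 for genes over 300000 nt.

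Genes of the mitochondrial chromosome formed the group with the most one-sided change: 16 of 20 tested genes rose and 0 fell, at a median log2 difference of 1.62. The 4 that did not pass had log2 differences of 0.00, 0.16, 0.26 and 0.57. Their summed level was 35313 and 34893 RPM with crosslinking, and 76257 and 44524 RPM without it. The groups did not overlap, and noUV replicate 1 stood well above noUV replicate 2. Most of each sum, and most of the gap between the noUV replicates, came from the gene at chrM:1673-3172. It had 28456 and 27840 RPM with crosslinking, and 49793 and 22845 RPM without. Without noUV replicate 1, 1 mitochondrial gene fell and 16 rose.

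A strong example was the mitochondrial gene at chrM:651-1500 on the plus strand, in hg19 coordinates of its peaks. Its level was 2805 and 2875 RPM with crosslinking, and 14664 and 13104 RPM without. The groups lay far apart, and the log2 difference was 2.29 (SE 0.07, limma adjusted p 7.45e-06). The neighbouring gene at chrM:1673-3172 went another way. It had 28456 and 27840 RPM with crosslinking, and 49793 and 22845 RPM without. Its noUV replicates lay on either side of the crosslinked pair, so the difference of 0.26 did not pass (SE 0.40, adjusted p 0.644). With noUV replicate 2 alone it was -0.30. With the gel the noUV replicates of this gene were split in the same way, at 41811 and 20847 RPM.

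No mitochondrial gene rose past the threshold by more for hnRNP C than for the other antibodies. The median log2 difference over 23 mitochondrial genes was 1.55 for hnRNP C, 1.14 for hnRNPA1, 2.38 for hnRNPI and 1.44 for RBFOX2. In a fit over 16 libraries, the change of each gene in hnRNP C was set against the mean change in the 3 other proteins. The fit called 3803 of 10546 genes (36.1%), with 3023 above (28.7%) and 780 below (7.40%). Of the 23 mitochondrial genes, 0 lay above and 4 below. The count was 2366 without crosslinked replicate 1 and 2419 without replicate 2.

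That fit has a center far from 0. Its median was 0.80, and the median change was -1.52 for hnRNPI, -0.85 for RBFOX2, -0.13 for hnRNPA1 and -0.16 for hnRNP C. With median-of-ratios scaling the median was 0.56 and the split 2304 to 1058. Of the 1569 genes that rose for hnRNP C, 602 had a change above and 67 a change below that of the other proteins. Of the 2303 that fell, 135 lay below and 783 above. Only 8706 genes were tested in both fits. A called gene without a value in the fit over 16 libraries, such as ENSG00000010278.7 among the rises, counts as neither.

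Single genes are given by identifier and hg19 position, because the lists pair no names with them. A leading rise among genes with the same direction in all pairs of libraries was that of ENSG00000179820.11 (peaks at chr19:54373006-54379662, plus strand). It had 0.824 and 1.49 RPM with crosslinking, and 79.3 and 59.7 RPM without. Both noUV libraries were far above both crosslinked ones, with a log2 difference of 5.03 (SE 0.43, limma adjusted p 0.000213). Another was ENSG00000010278.7 (chr12:6309542-6347334, plus strand), which crosslinked replicate 1 did not list and replicate 2 had at 0.745 RPM. Without crosslinking it had 21.6 and 47.0 RPM (log2 difference 4.64, SE 0.71, adjusted p 0.00207). The order of these genes depends on the pseudocount: at 0.25 they had 5.66 and 6.01. With the gel and without crosslinking the levels of these genes were 54.9 and 51.5, and 26.3 and 39.8 RPM. All 8 leading rises were below 10 RPM in both crosslinked libraries and passed the filter only through the noUV libraries. They were also picked for the size of the rise. Their direction was thus fixed, and the p-values and gaps between the groups do not test it.

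The other 6 leading rises had log2 differences between 3.78 and 4.14. They included 1 gene of which the peaks span chr6:26156619-26157206 on the plus strand. Its level went from 8.73 and 8.79 RPM to 218 and 115 RPM, with no overlap between the groups (log2 difference 4.03, SE 0.32, adjusted p 0.000156). For that gene the change did not differ detectably from that in the other proteins (-0.33, SE 0.36, adjusted p 0.505).

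The 2 largest falls were of genes that neither noUV library listed. ENSG00000172159.11 (chr9:85878610-86151842, minus strand) had 42.8 and 41.7 RPM with crosslinking (adjusted p 0.00069). With the gel it was listed without crosslinking, at 3.98 and 5.72 RPM. The call was lost without crosslinked replicate 1 (adjusted p 0.135) or replicate 2 (adjusted p 0.0929). ENSG00000207367.1 (chrX:48635418-48635485, minus strand), with a span of 68 nt, had 21.7 and 20.6 RPM with crosslinking (adjusted p 0.00421). It was not listed without crosslinking either with or without the gel. No fold is given for these genes, because they are listed on one side only. Of the other 6 leading falls, 5 were not listed in noUV replicate 1 and 1 was not listed in replicate 2. All leading falls passed the filter only through the crosslinked libraries and were picked for the size of the fall, so their direction was fixed.

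Among the 8 genes with the most listed reads without crosslinking, 4 outside the mitochondrial chromosome changed past the threshold. The gene at chrX:73041026-73072550 on the minus strand had 6465 and 6060 RPM with crosslinking, and 16262 and 21696 RPM without. The groups did not overlap (log2 difference 1.59, SE 0.12, adjusted p 0.000149). The gene at chr11:65266517-65273500 on the plus strand went from 2476 and 2045 RPM to 4745 and 4414 RPM (1.02, SE 0.10, adjusted p 0.000348). The gene at chr22:38879612-38902309 on the minus strand went from 1140 and 1078 RPM to 2569 and 2271 RPM (1.12, SE 0.09, adjusted p 0.000151). These 3 genes rose with both noUV libraries above both crosslinked ones. All 8 genes were chosen by their noUV level, which favours rises.

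The gene at chr4:20254978-20622099 on the plus strand fell. It had 3552 and 3448 RPM with crosslinking, and 2768 and 2488 RPM without (-0.42, SE 0.08, adjusted p 0.0047). The call was lost without crosslinked replicate 1 (adjusted p 0.122) or 2 (0.0881) and under median-of-ratios scaling (-0.29, adjusted p 0.0928). By its number of peaks the gene rose by 0.57 (adjusted p 0.0352).

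Overlapping peaks carry 2 identifiers at chr11:62609125-62609283 on the minus strand, with spans of 157 and 71 nt, so the reads cannot be assigned to one of them. The level of the one with the wider span was 2377 and 2167 RPM with crosslinking. Without crosslinking it was 2471 RPM in replicate 1 and 4998 RPM in replicate 2, and the difference of 0.63 did not pass (SE 0.27, adjusted p 0.0988). The one at chr11:62609212-62609281 did not pass either (0.64, SE 0.27, adjusted p 0.095). Replicate 1 lay just above the crosslinked pair and replicate 2 far above it.

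The same comparison was made site by site. Over the 4 libraries, 774303 sites were formed, and 38733 of them were listed in all 4. Of the 185753 sites listed in both crosslinked libraries, 99711 were in neither noUV library. Of the 72256 listed in both noUV libraries, 18630 were in neither crosslinked one. Sites with a mean of at least 5 RPM were tested (22514), and 3604 passed (16.0%), 2935 higher without crosslinking (13.0%) and 669 lower (2.97%). Of the higher sites 1367 were listed in no crosslinked library and 1472 in all 4 libraries. Of the lower sites, 548 were listed in no noUV library and 121 in all 4. A site that one group does not list passed the filter only through the other group, so its direction was fixed. Of the tested sites, 16278 were listed in all 4 libraries.

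These counts leaned on single libraries. Without noUV replicate 1, 5868 sites passed, 2782 higher and 3086 lower. Without crosslinked replicate 1 or 2, 1606 and 1730 passed, of which 8 and 9 were lower. Under median-of-ratios scaling, 3958 passed with 2437 higher, which is 61.6% of the calls against 81.4%.

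The sites with the highest levels without crosslinking that the crosslinked libraries also listed were on the mitochondrial chromosome in 4 of 6 cases. They were chosen by their noUV level, which favours rises. The site chrM:580-830 on the plus strand had 539 and 540 RPM with crosslinking, and 3365 and 3798 RPM without. Both noUV libraries lay well above (log2 difference 2.73, SE 0.24, adjusted p 0.0134). The site chrM:1277-1500 had 1563 and 1607 RPM with crosslinking, and 6566 and 5414 RPM without (1.91, SE 0.26, adjusted p 0.0143). Outside that chromosome, chrX:73071123-73072135 on the minus strand went from 366 and 372 to 2590 and 1348 RPM (2.34, SE 0.39, adjusted p 0.0234). These 3 calls were lost without either crosslinked replicate, with adjusted p between 0.0839 and 0.232 for an arm of 1 library. The log2 differences stayed at 2.73 and 2.73, 1.89 and 1.93, and 2.33 and 2.35.

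The other 3 of these sites did not pass, and in each the noUV replicates disagreed. The site chrM:2602-2901 had 10869 RPM in noUV replicate 1 and 4227 RPM in replicate 2, around crosslinked levels of 5306 and 5076 RPM. The site chrM:1614-1782 had 9082 and 4681 RPM, around 5834 and 5729 RPM. The site chr11:62609125-62609283 had 2471 and 4998 RPM, with the higher value in replicate 2.

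Strong crosslinked sites that neither noUV library listed were described without a test, since this pattern chose them. The first was chrX:73043297-73043570 on the minus strand, with 1298 and 1309 reads with crosslinking. It lies in the gene at chrX:73041026-73072550, of which the level was 3.00-fold higher without crosslinking, so the site and its gene went opposite ways. The next was chr11:65266681-65266753 on the plus strand, with 558 and 565 reads, again in a gene of which the level rose. Another, chrX:107968134-107968238 on the minus strand, had 423 and 420 reads. None of these 3 was listed without crosslinking with the gel either, and all were listed in both crosslinked RecJ libraries. Of the 6 noUV libraries of the other antibodies, 4, 5 and 2 listed them. With peaks joined up to 100 nt apart, the site at chr11:65266681 merged with neighbours and had a log2 difference of 0.36 (adjusted p 0.382), and that at chrX:107968134 one of -0.12 (adjusted p 0.899).

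Sites listed in both noUV libraries and in no crosslinked one were likewise described only. The site chrM:2525-2557 on the plus strand, 33 nt long, had 9173 and 7128 reads. It lies within 100 nt of the listed crosslinked signal, and joined over that distance its log2 difference was 0.07 (adjusted p 0.93). The site chrX:73046606-73047819 on the minus strand, 1214 nt long, had 2510 and 2444 reads, and with the gel 2430 and 3128 reads. It was listed in all 6 noUV libraries of the other antibodies. The site chr11:65272182-65272415 on the plus strand had 623 and 999 reads, and chrM:11440-11681 had 437 and 863 reads. The noUV libraries of the other antibodies also listed these, 3 of 6 and 6 of 6. The site chrM:2525-2557 was listed in 4 of those 6. The RecJ libraries of hnRNP C listed none of these 4 sites, but 4 of the 6 crosslinked libraries of the other antibodies listed each. Joined with peaks up to 100 nt apart, the site at chr11:65272182 had a log2 difference of 1.00 (adjusted p 0.123) and that at chrM:11440 one of 5.09 (adjusted p 0.196), so neither passed.

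**Figure D4:**
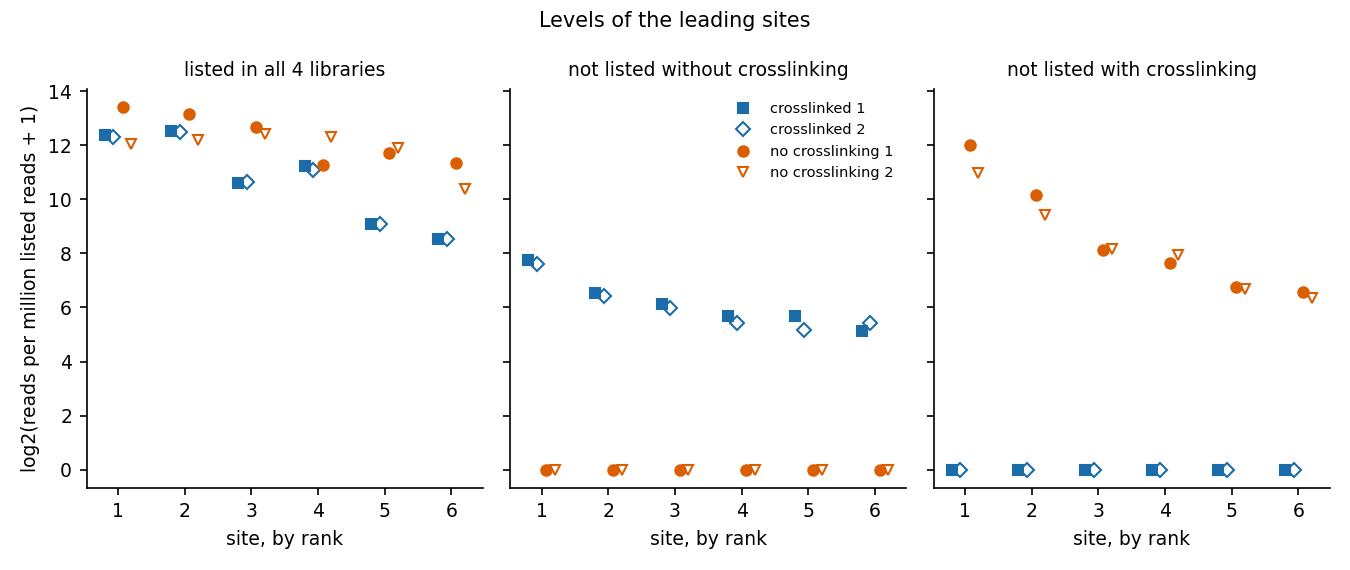
Level of 18 sites, as log2 of reads per 1000000 listed reads plus 1 (vertical axis), by rank within each panel (horizontal axis). Squares and diamonds are the crosslinked libraries, circles and triangles those without crosslinking, and 0 means not listed. The left panel holds reference sites listed in all 4 libraries, the middle panel those that neither noUV library lists, and the right panel those that neither crosslinked library lists.

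The 2 noUV replicates differed more than the crosslinked ones did. Replicate 2 had the longer list, and of the peaks of replicate 1, 42.2% were in replicate 2, while 29.3% of those of replicate 2 were in replicate 1. Cut to 180532 peaks each, by the smallest p, the shares were 37.0% and 38.4%. For the crosslinked replicates the shares were 47.2% and 44.4% over the full lists, and 57.8% and 58.1% with these lists also cut to 180532 peaks. Crosslinked peaks held 103345 peaks of replicate 1 and 115857 of replicate 2, so most of the added length lay elsewhere. In replicate 2, 48.1% of the peaks (129568) were neither in a crosslinked peak nor in replicate 1, against 30.3% (54661) in the other direction. With equal list length, 48.7% of the peaks of replicate 2 and 57.2% of those of replicate 1 lay in crosslinked peaks. Replicate 2 then retained 25.7% of the reference sites and replicate 1 30.96%. Peaks of 10 nt or less made up 3.64% of replicate 2, 2.39% of replicate 1, and 2.50% and 2.46% of the crosslinked lists.

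Gene levels showed the same spread. The SD over the 9210 genes of the log2 difference between replicates was 0.58 without crosslinking and 0.28 with it. It was 0.48 between the crosslinked lists titled 500. More than 2-fold apart were 759 genes (8.24%) without crosslinking, 60 (0.651%) with it and 457 (4.96%) in the lists titled 500. Of the 759, 603 were higher in replicate 2 and 156 in replicate 1. The correlation of log2 levels between replicates was 0.94 without crosslinking, 0.985 with it and 0.964 in the lists titled 500, over the same genes. For the 22514 sites the SD was 1.41 without and 0.72 with crosslinking, and 25.3% of sites against 7.95% were over 2-fold apart. The site correlations were 0.443 and 0.827, over sites in which a missing peak counts as 0.

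By class, the mitochondrial genes were lower in replicate 2 by a median of 0.24 (log2), and genes over 300000 nt were higher by 0.18. Mitochondrial genes held 7.60% of the listed reads in replicate 1 and 4.43% in replicate 2, against 3.53% and 3.49% with crosslinking. Most of the gap between the noUV replicates lay in the gene at chrM:1673-3172, with 49793 and 22845 RPM. With the gel, the noUV libraries held 6.52% (replicate 1) and 4.12% (replicate 2) there.

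Like-numbered noUV libraries with and without the gel were compared in the same way. The difference of replicate 2 minus replicate 1 without the gel had a correlation of 0.23 with that difference with the gel, over 9210 genes. With the crosslinked replicates it was 0.0145. Of the 759 genes more than 2-fold apart, 501 (66.01%) had the same sign with the gel, against 59.4% of all genes. Peaks of noUV replicate 1 were in the gel library of replicate 1 for 49.4% and in that of replicate 2 for 37.9%. For the peaks of noUV replicate 2 these shares were 34.3% and 34.1%, near-equal for both gel libraries. The reference sites were retained at 38.1% and 28.1% by the noUV gel libraries of replicates 1 and 2, so the gel replicates were less alike in this share than those without the gel.

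**Figure D5:**
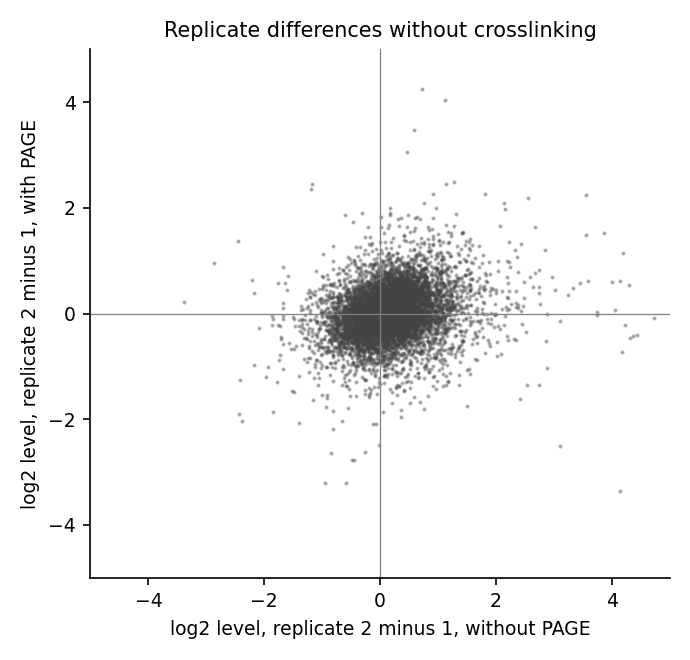
Each point is 1 of 9210 genes. The horizontal axis gives the log2 level of noUV replicate 2 minus replicate 1 without PAGE, and the vertical axis the same difference with PAGE. The points scatter around 0 on both axes with a correlation of 0.23, and more points lie beyond 1 on the right (603) than beyond -1 on the left (156).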

How the data were processed

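The 4 hnRNP C libraries and, for comparison, 28 others of the 68 were read (32 lists). Reads were processed with bcl2fastq, UMI-tools 1.0.1 and STAR 2.7.3a on hg19, per the submitters' processing notes, and the deposited file names give CLIPper as the peak caller. For adapter trimming and the annotation release, the step is not given in the sources used here. Each list gives a peak's position and strand, a p-value that the authors' caller assigned to the peak in that library alone, and a name with an Ensembl gene identifier and a last number. That deposited number is of unstated meaning, was at least 4, and was read as the read number of the peak. It was treated as a value of another kind and not as a library count.

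A peak listed for several genes (3.28% to 3.83% of rows) was kept once for sites and in each gene for genes. Peaks of a gene and strand less than 30 nt apart were joined and took the highest read number. Levels are per 1000000 listed cluster reads of the library (2219595 to 6713832), since the depth is unknown, and no count interval can be given. Tests used limma 3.58.1 (trend and robust) in R 4.3.3 with a pseudocount of 1 on that scale and Benjamini-Hochberg adjustment over all features. The test was run on simulated counts with the same spread in both groups. That check cannot show how the calls hold under the unequal spread of these libraries. Overlap means 1 nt or more on the same strand. Shares were compared with exact permutation tests, computed with Python 3.11.15; 2 libraries against 2 cannot go below a p of 0.333.

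Named features were the 8 largest rises and falls past the threshold with 1 direction in all pairs, the 8 genes highest without crosslinking, and 6 sites of each kind (retained, lost, gained), 1 per gene. A further part of the rule, with gene lists given by symbol, could not be applied, because the files and the tables at hand pair no names with the identifiers. No genome of the build was at hand, so the planned share of sites near runs of T was not computed and no sequence is shown. The members, lists and rules were chosen with earlier results of these data known. The span classes, the deciles of genes, the read window of 15 to 22, the lists titled 500, the gel pairs and the cuts to equal list length were choices made with the data in view.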

Additional observations from a re-analysis of the deposited data

Results flagged for a closer look

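In 11 of the named genes, the change without crosslinking differed between hnRNP C and the mean of hnRNPA1, hnRNPI and RBFOX2 in the limma fit over 16 libraries (interaction term, adjusted over 10546 genes, in which the median over all genes was 0.80). Values are log2 differences of differences.

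For ENSG00000179820.11, a leading rise, the value was 4.02 (SE 0.44, adjusted p 9.56e-05). For ENSG00000172159.11, which neither noUV library listed, it was -4.20 (SE 0.31, adjusted p 1.68e-05). Among the other leading rises, the gene at chr17:7308967-7323110 had 2.91 (SE 0.42, adjusted p 0.000529) and that at chr19:13263867-13265473 had 3.35 (SE 0.65, adjusted p 0.00295), both on the plus strand. Among the other leading falls, the gene at chr7:597535-765064 had -3.68 (SE 0.69, adjusted p 0.00249) and that at chr19:13216573-13227140 had -2.82 (SE 0.74, adjusted p 0.0136), both on the minus strand. The leading rises and falls were picked by their change in hnRNP C. That change is part of these values, so their sign was in part set by the choice. The gene at chrM:1673-3172, whose noUV replicates lay on either side of the crosslinked ones, had -1.18 (SE 0.35, adjusted p 0.0252). The gene at chrX:73041026-73072550 had 1.15 (SE 0.26, adjusted p 0.00662), that at chr4:20254978-20622099 had 1.10 (SE 0.12, adjusted p 7.78e-05) and that at chr22:38879612-38902309 had 1.73 (SE 0.22, adjusted p 0.000274). For the gene at chr11:65266517-65273500 the value was 0.59 (SE 0.12, adjusted p 0.00353), which is above 0 but under the median over all genes. The groups hold 2 libraries each, so the search for a library that stands apart within a group was not made.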

How the results depend on the processing

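Of the alternative values of the main results, 39 kept their direction and their side of the threshold (for counts, stayed within 1.5 times), 19 moved and 3 turned sign. The 19 include all 6 values of the share of genes listed. These ran from 74.5% to 91.0% against 83.5%, so they stayed within 1.5 times although counted as moved. Of those of single genes and sites, 435 kept direction and side, 60 lost and 9 gained the call, and 10 turned sign.

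The 3872 genes called became 2571 at a mean of at least 50 RPM (fewer genes tested), 1863 by the number of peaks, and 1924 to 5702 with 1 library left out. The 3803 genes that differed from the other proteins became 2259 at 50 RPM, and 2366 to 2987 with 1 hnRNP C library left out. The 3604 sites became 145 of 274 at 50 RPM, 7884 with peaks of p below 1e-05, and 1606 to 5868 with 1 library left out. With no filter, limma called 0 of 774303 sites, of which 82705 had an unadjusted p below 0.05. The genes in both noUV lists, 83.5% of those in both crosslinked ones, became 74.5% at p below 1e-05, 81.2% with at least 3 peaks per gene, and 78.1% to 91.0% with 1 library left out. The share of noUV peaks in crosslinked peaks, -7.71 points below the other proteins, was 0.142 points above them in the 10000 peaks with the smallest p, and -19.7 to -0.601 points with 1 library left out. The lowest values, -17.8 and -19.7, left out a crosslinked hnRNP C library. The other proteins kept their joined crosslinked lists there, so the hnRNP C share could only fall. The retained share, 6.91 points above the other proteins, was -4.75 to 6.96 points with 1 library left out. Its negative values also came from leaving out a crosslinked hnRNP C library, which changed the reference for hnRNP C alone.

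Named genes that turned sign were chrM:1673-3172 (-0.30 without noUV replicate 1, 0.82 without noUV replicate 2), chr4:20254978-20622099 (0.57 by number of peaks) and the pair at chr11:62609125-62609283 (-1.10 and -0.12 with peaks summed, and -1.15 by number of peaks for 1 of them). Sites that turned were chrM:2602-2901 (-0.30 without noUV replicate 1, 1.07 without noUV replicate 2) and chrM:1614-1782 (-0.30 and 0.65), the latter also by ratio scaling (-0.18) and with only overlapping peaks joined (-0.026), and chr11:65266681-65266753 (0.36 with peaks joined up to 100 nt). Where no cause is named here, the cause was not tested.

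With replicate number as a block, 4223 genes, 3599 sites and 3715 differing genes were called. The numbers do not pair the libraries: the replicate differences of the groups had a correlation of 0.0145 over genes and 0.00245 over sites. Depth is unknown, so a site that is not listed has no limit.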
